A study of Homo sapiens with 12 samples.

Results

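The genes described here are 10 regulators and effectors of mitogen-activated protein kinase (MAPK) signalling. They are 5 dual-specificity phosphatases (DUSP1, DUSP2, DUSP4, DUSP5 and DUSP6), 2 Sprouty genes (SPRY1 and SPRY2), 2 SPRED genes (SPRED1 and SPRED2) and RPS6KA5, which encodes the kinase MSK1. They were picked by symbol from 78930 genes with counts, with earlier results on these libraries known. Which values led to the choice is not recorded, so counts over the 10 genes describe them and support nothing about the pathway. Of the 10 genes, 9 passed the filter on low counts, as did 24064 genes in all, and SPRY1 did not.

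In MAPK signalling, growth factor receptors activate RAS, and RAS starts the kinase chain RAF, MEK and ERK. Active ERK induces its own brakes: DUSP proteins remove the activating phosphates from MAP kinases, and Sprouty and SPRED proteins act upstream, between the receptor and RAF. Transcripts such as DUSP6 and SPRY2 are therefore widely read as outputs of ERK signalling. MSK1 lies downstream of ERK and of the stress kinase p38, and phosphorylates histone H3 and the transcription factor CREB in the nucleus.

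RNA was measured by sequencing in OCI-AML3 cells, a human acute myeloid leukaemia line with the cytoplasmic mutant of nucleophosmin (NPM1c) that is also known to carry an activating NRAS mutation. All groups carried the same NPM1c-degron genotype, with wild-type NPM1 beside an NPM1c fused to a tag that lets the small molecule dTAG-13 send the protein for degradation. The group dTAG FL-NPM1c received dTAG-13 and a lentivirus for full-length NPM1c joined to mCherry. The group dTAG C-body null received dTAG-13 and the construct named C-body null in the labels, also joined to mCherry. The group dTAG mCherry received dTAG-13 and mCherry alone. The group NTC DMSO was titled as solvent-treated, and its labels name no construct. Per the labels' protocols, 500 nM dTAG-13 was given 48 hours after transduction and cells positive for mCherry were isolated by flow sorting after a further 24 hours. The cell line labels carry running numbers from OCI-AML3 to OCI-AML14 over the 12 samples, although the protocol names OCI-AML3 alone. The treatment label of NTC DMSO reads dTAG while the titles read DMSO, the meaning of NTC is not given, and the construct and the drug cannot be told apart in comparisons with that group.

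Each of the 4 groups had 3 libraries, with 30.5 M to 59.9 M counts per library. Nothing in the labels says that replicates were separate cultures, and the spread that the p-values rest on may be technical. dTAG mCherry replicate 2 (15.6) stood apart on the third principal component (9.89% of the variance) from its group (-26.7 and -24.4), as did NTC DMSO replicate 3 (25.2, against -5.82 and -4.84). Mitochondrial transcripts took 7.32% to 9.63% of counts in dTAG mCherry and 6.83% to 7.63% in the other 9 libraries. NPM1 transcript was 1610 to 1680 CPM (counts scaled to the effective library size) in dTAG FL-NPM1c, 1900 to 1940 in dTAG C-body null, 1060 to 1390 in dTAG mCherry and 1300 to 1520 in NTC DMSO. Because dTAG-13 acts on protein, this transcript does not measure degradation. Of the listed markers of other blood cells, CD3D, CD3E, CD3G, CD2 and HBB had 0 counts in all 12 libraries. The summed level of 6 B and plasma cell markers was 5.69 to 6.46 CPM in dTAG FL-NPM1c, 1.57 to 2.20 in dTAG C-body null, 1.84 to 2.17 in dTAG mCherry and 3.05 to 3.30 in NTC DMSO. Among these, SDC1 was higher in dTAG FL-NPM1c than in dTAG mCherry by 1.65 ± 0.14 on the log2 scale (adjusted p = 1.2e-06, edgeR) and than in dTAG C-body null by 1.82 ± 0.14 (adjusted p = 2.0e-07). The summed level of 12 monocyte and macrophage markers was 2930 to 3120 CPM in dTAG FL-NPM1c, 4510 to 4650 in dTAG C-body null, 3320 to 3740 in dTAG mCherry and 519 to 553 in NTC DMSO. Singly, not all moved with the sum. In dTAG FL-NPM1c, 9 were called higher and 1 lower than in NTC DMSO (27.9% of all tested genes called). There, 5 were lower than in dTAG mCherry (15.5%) and 8 lower than in dTAG C-body null (9.68%). In dTAG C-body null, 1 was higher than in dTAG mCherry (0.594%). All 12 were higher than in NTC DMSO in dTAG mCherry (22.6%) and in dTAG C-body null (26.6%). The part of these marker differences in the values below was not tested. In bulk RNA, a change in the mix of cells and a change per cell cannot be told apart.

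RPS6KA5 had the widest spread of group levels on the log2 scale among the 9 tested genes. It lies on chromosome 14 (90847862 to 91060636, minus strand, GRCh38, ENSG00000100784). It stood at 21.5, 22.4 and 25.1 CPM in dTAG FL-NPM1c, at 12.6, 13.3 and 11.2 CPM in dTAG C-body null, at 17.9, 17.0 and 18.6 CPM in dTAG mCherry and at 37.7, 37.4 and 32.8 CPM in NTC DMSO. No library of any group overlapped those of another, and the order from high to low was NTC DMSO, dTAG FL-NPM1c, dTAG mCherry and dTAG C-body null.

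RPS6KA5 fell in dTAG mCherry relative to NTC DMSO, with 17.8 ± 0.808 CPM against 35.9 ± 2.71 CPM (SD, n = 3 each). The log2 fold change was -1.01 ± 0.10 (SE; adjusted p = 9.1e-07, edgeR quasi-likelihood test, Benjamini-Hochberg over all genes tested, as throughout). With FL-NPM1c added back it was 23.0 ± 1.90 CPM, higher than in dTAG mCherry by 0.37 ± 0.10 (adjusted p = 0.017). This call was lost without dTAG FL-NPM1c replicate 1 (0.38, adjusted p = 0.051) or 3 (0.30, adjusted p = 0.073) and without dTAG mCherry replicate 1 (0.34, adjusted p = 0.083). With C-body null it was 12.3 ± 1.06 CPM, lower than in dTAG mCherry by a log2 fold change of -0.53 ± 0.10 (adjusted p = 0.016). That call was lost without dTAG C-body null replicate 1 (adjusted p = 0.082) or 3 (0.14) and without dTAG mCherry replicate 1 (0.094) or 3 (0.051), and with these groups fitted alone (0.11).

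The constructs themselves differed in RPS6KA5. It was higher in dTAG FL-NPM1c than in dTAG C-body null by 0.90 ± 0.10 on the log2 scale (95% interval 0.69 to 1.11, adjusted p = 1.2e-05). Both remained below NTC DMSO, dTAG FL-NPM1c by a log2 fold change of -0.64 ± 0.09 (adjusted p = 1.3e-04) and dTAG C-body null by -1.54 ± 0.10 (adjusted p = 6.0e-09). These comparisons share libraries, so they are not independent of each other. Without dTAG mCherry replicate 2 and NTC DMSO replicate 3, which stood apart, RPS6KA5 gave -1.02 for dTAG mCherry against NTC DMSO (adjusted p = 5.0e-06), 0.30 for dTAG FL-NPM1c against dTAG mCherry (adjusted p = 0.020) and -0.58 for dTAG C-body null against dTAG mCherry (adjusted p = 0.0023). Exons of RPS6KA5 overlap those of DGLUCY on the other strand, and the strand setting of the counting is not given in the sources used here. DGLUCY had 34.9 to 48.9 CPM, with log2 fold changes of 0.21 for dTAG mCherry against NTC DMSO (adjusted p = 0.14) and -0.18 for dTAG FL-NPM1c against dTAG C-body null (adjusted p = 0.26), which did not pass the test.

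**Figure D1:**
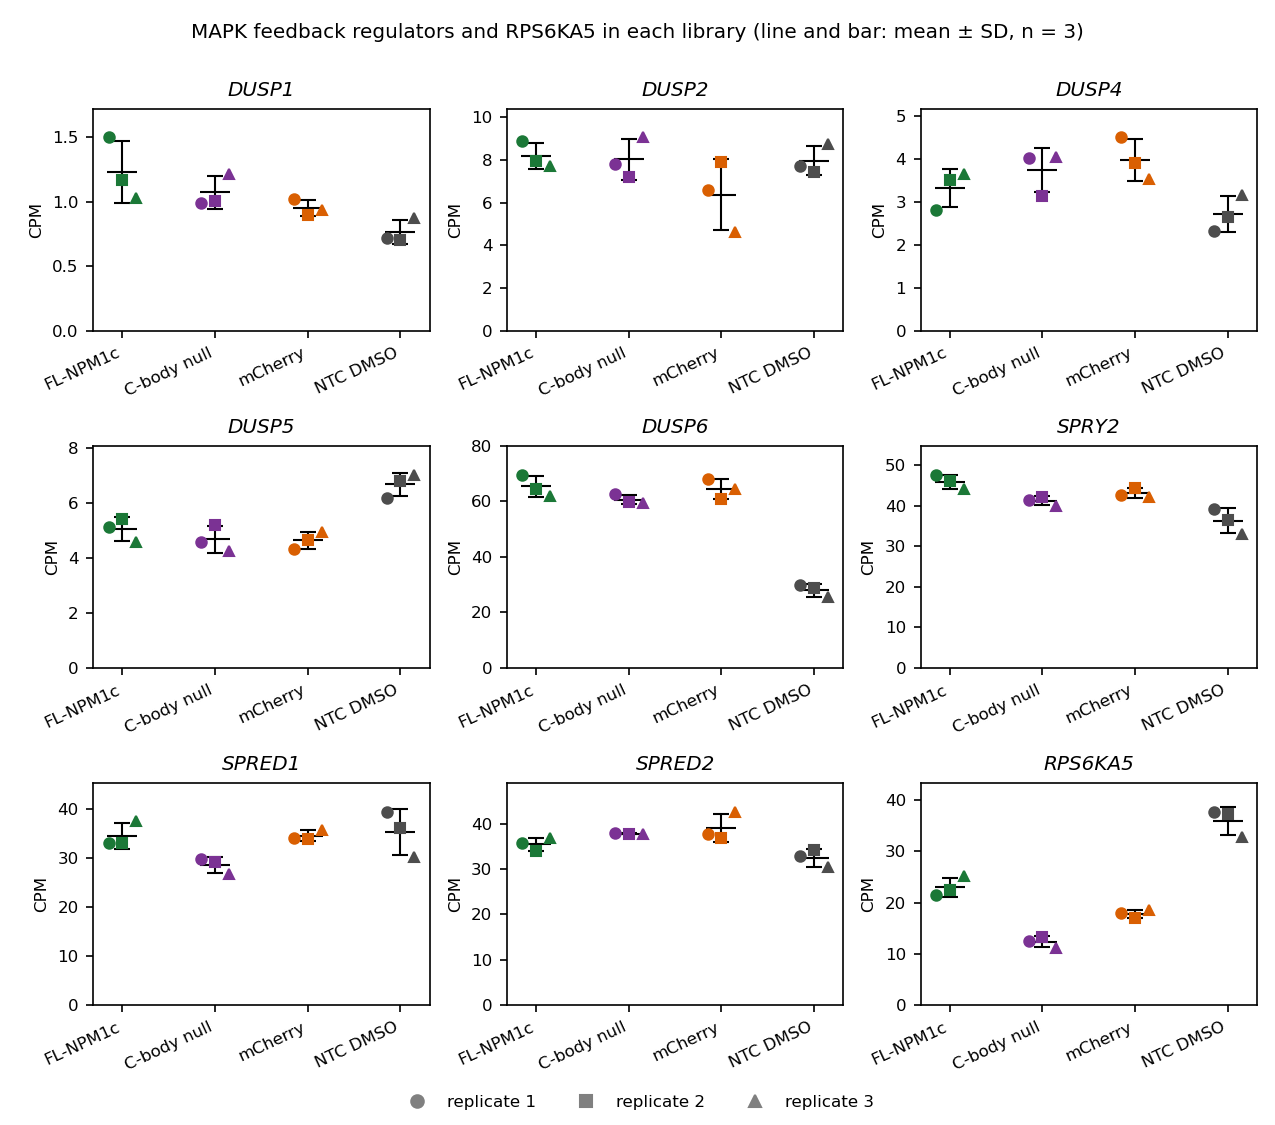
Level of each of the 9 tested genes in every library, in CPM (counts scaled to library size, linear axis from 0), with the groups side by side and the mean and SD (n = 3) as line and bar. RPS6KA5 separates all 4 groups, whereas DUSP6 lies between 59.5 and 69.6 CPM in the 9 dTAG-13 libraries and between 25.4 and 29.8 CPM in NTC DMSO.

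DUSP6, a cytoplasmic phosphatase with a preference for ERK, was higher in every dTAG-13 group than in NTC DMSO. It lies on chromosome 12 (89347232 to 89353271, minus strand, ENSG00000139318). Its level was 69.6, 64.6 and 62.1 CPM in dTAG FL-NPM1c, 62.5, 59.8 and 59.5 CPM in dTAG C-body null, 68.2, 60.9 and 64.6 CPM in dTAG mCherry and 29.8, 28.8 and 25.4 CPM in NTC DMSO. The dTAG-13 groups overlapped each other and did not overlap NTC DMSO. DUSP6 rose in dTAG mCherry by 1.20 ± 0.08 on the log2 scale relative to NTC DMSO (2.31-fold, adjusted p = 2.8e-08), and by 1.20 without dTAG mCherry replicate 2 and NTC DMSO replicate 3 (adjusted p = 7.4e-08). It was 1.22 ± 0.08 above NTC DMSO in dTAG FL-NPM1c (adjusted p = 2.9e-08) and 1.11 ± 0.08 above it in dTAG C-body null (adjusted p = 4.2e-08).

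No difference in DUSP6 was detected between the constructs and mCherry. The log2 fold change was 0.02 for dTAG FL-NPM1c against dTAG mCherry (95% interval -0.15 to 0.19, adjusted p = 0.90) and -0.09 for dTAG C-body null against dTAG mCherry (-0.26 to 0.08, adjusted p = 0.65). Exons of DUSP6 overlap an antisense gene, ENSG00000274021, which was also higher in dTAG mCherry than in NTC DMSO (1.21 ± 0.14, adjusted p = 6.0e-06). That gene had 3.77 to 12.9 CPM over the 12 libraries, and without the strand setting reads of the pair cannot be told apart.

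The other 4 phosphatases act in the nucleus, and their mean levels in dTAG mCherry ran from 0.472 CPM per kb of annotated exon (DUSP1) to 3.30 (DUSP2), against 13.9 for DUSP6. DUSP5, specific for ERK, stood at 5.14, 5.43 and 4.59 CPM in dTAG FL-NPM1c, at 4.59, 5.21 and 4.24 CPM in dTAG C-body null, at 4.34, 4.65 and 4.94 CPM in dTAG mCherry and at 6.20, 6.80 and 7.03 CPM in NTC DMSO. Every dTAG-13 library lay below every NTC DMSO library. DUSP5 moved opposite to DUSP6: it fell in dTAG mCherry by 0.52 on the log2 scale (SE 0.12, adjusted p = 0.0040), and its log2 fold change from NTC DMSO was -0.40 ± 0.12 in dTAG FL-NPM1c (adjusted p = 0.016) and -0.51 ± 0.12 in dTAG C-body null (adjusted p = 0.0037). The call in dTAG FL-NPM1c was lost without its replicate 3 (-0.34, adjusted p = 0.072).

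DUSP4, an ERK-induced nuclear phosphatase, had 2.81, 3.50 and 3.64 CPM in dTAG FL-NPM1c, 4.01, 3.14 and 4.05 CPM in dTAG C-body null, 4.50, 3.90 and 3.54 CPM in dTAG mCherry and 2.33, 2.65 and 3.17 CPM in NTC DMSO. It was higher in dTAG mCherry than in NTC DMSO by 0.56 ± 0.16 (adjusted p = 0.020). The call was lost without NTC DMSO replicate 1 (0.45, adjusted p = 0.095) or 2 (0.55, adjusted p = 0.058) and without dTAG mCherry replicate 1 (0.45, adjusted p = 0.093). In dTAG C-body null, which overlapped NTC DMSO, it was higher by 0.46 ± 0.16 (adjusted p = 0.045), lost without NTC DMSO replicate 1 (adjusted p = 0.19) or 2 (0.12) and without dTAG C-body null replicate 1 (0.14) or 3 (0.15).

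DUSP1, an immediate early gene whose product acts on p38 and JNK as well as ERK, had only 28 to 69 counts per library. It stood at 1.50, 1.17 and 1.03 CPM in dTAG FL-NPM1c, 0.989, 1.01 and 1.22 CPM in dTAG C-body null, 1.02, 0.901 and 0.935 CPM in dTAG mCherry and 0.719, 0.700 and 0.872 CPM in NTC DMSO. It passed the test only for dTAG FL-NPM1c against NTC DMSO (0.68 ± 0.20, adjusted p = 0.018), among the 6 comparisons made. That call was lost without NTC DMSO replicate 1 (adjusted p = 0.073) or 2 (0.090) and without dTAG FL-NPM1c replicate 1 (0.12).

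DUSP2, a nuclear phosphatase of blood cells, passed the test in none of the 6 comparisons. Its level was 8.89, 7.95 and 7.74 CPM in dTAG FL-NPM1c, 7.83, 7.19 and 9.06 CPM in dTAG C-body null, 6.58, 7.93 and 4.61 CPM in dTAG mCherry and 7.71, 7.45 and 8.75 CPM in NTC DMSO. The dTAG mCherry libraries spread the most, and the calls depended on replicate 2 of that group. Without it, DUSP2 was lower in dTAG mCherry than in NTC DMSO (-0.50, adjusted p = 0.023) and higher in dTAG FL-NPM1c than in dTAG mCherry (0.54, adjusted p = 0.014). With NTC DMSO replicate 3 left out as well, the difference between dTAG mCherry and NTC DMSO no longer passed (-0.41, adjusted p = 0.079), and DUSP2 was higher than in dTAG mCherry in dTAG FL-NPM1c (0.51, adjusted p = 0.014) and in dTAG C-body null (0.50, adjusted p = 0.032).

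Sprouty proteins block signalling between receptor and RAF. SPRY2 had 47.7, 46.1 and 44.2 CPM in dTAG FL-NPM1c, 41.5, 42.3 and 40.0 CPM in dTAG C-body null, 42.7, 44.5 and 42.1 CPM in dTAG mCherry and 39.3, 36.6 and 33.1 CPM in NTC DMSO. All 9 dTAG-13 libraries were above the NTC DMSO libraries. SPRY2 was higher than in NTC DMSO by 0.34 ± 0.08 in dTAG FL-NPM1c (adjusted p = 0.0049) and by 0.25 ± 0.08 in dTAG mCherry (adjusted p = 0.034), while dTAG C-body null did not pass the test (0.18 ± 0.08, adjusted p = 0.10). The call in dTAG mCherry was lost without dTAG mCherry replicate 1 (adjusted p = 0.087) or 2 (0.063), without NTC DMSO replicate 2 (0.078) or 3 (0.12), with these groups fitted alone (0.14), with RLE factors (0.052) and with no filter on low counts (0.17). It was also lost without dTAG mCherry replicate 2 and NTC DMSO replicate 3 together (0.18, adjusted p = 0.074). SPRY1 had 0 to 3 counts in each library and was not tested.

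The SPRED proteins carry the RAS inhibitor neurofibromin to the membrane. SPRED2 stood at 35.7, 34.0 and 36.8 CPM in dTAG FL-NPM1c, 37.9, 37.7 and 37.7 CPM in dTAG C-body null, 37.7, 36.8 and 42.6 CPM in dTAG mCherry and 32.8, 34.3 and 30.4 CPM in NTC DMSO. It was higher in dTAG mCherry than in NTC DMSO by 0.26 ± 0.08 (adjusted p = 0.029). In dTAG C-body null it did not pass the test against NTC DMSO (0.22 ± 0.08, adjusted p = 0.061), but was called with library totals (adjusted p = 0.030), with the filter of 50 counts (0.035) and by DESeq2 (0.046). The call in dTAG mCherry was lost without dTAG mCherry replicate 1 (adjusted p = 0.067) or 3 (0.10), without NTC DMSO replicate 1 (0.070) or 3 (0.092), with these groups fitted alone (0.13) and with no filter on low counts (0.14). Without dTAG mCherry replicate 2 and NTC DMSO replicate 3 together, SPRED2 was lower in dTAG FL-NPM1c than in dTAG mCherry (-0.21, adjusted p = 0.038).

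SPRED1 had 33.1, 33.0 and 37.6 CPM in dTAG FL-NPM1c, 29.9, 29.2 and 26.8 CPM in dTAG C-body null, 34.0, 33.9 and 35.8 CPM in dTAG mCherry and 39.4, 36.2 and 30.3 CPM in NTC DMSO. The dTAG C-body null libraries were the lowest. SPRED1 fell there relative to NTC DMSO by 0.30 on the log2 scale (SE 0.10, adjusted p = 0.031), a call lost on leaving out each of the 3 dTAG C-body null libraries in turn (adjusted p = 0.053, 0.073 and 0.13) and without NTC DMSO replicate 1 (0.17) or 2 (0.11). It did not pass the test for dTAG C-body null against dTAG mCherry (-0.27 ± 0.10, adjusted p = 0.30) or for dTAG FL-NPM1c against dTAG C-body null (0.27 ± 0.10, adjusted p = 0.093). The comparison of dTAG C-body null with dTAG mCherry passed without dTAG mCherry replicate 2 and NTC DMSO replicate 3 together (-0.30, adjusted p = 0.025). Scaled per kilobase of annotated exon, the highest mean levels in dTAG mCherry were those of SPRY2 (14.2 CPM per kb) and DUSP6 (13.9), and RPS6KA5 stood at 0.638 CPM per kb. The length is that of all annotated exons together, 27976 bases for RPS6KA5, 3038 for SPRY2 and 4632 for DUSP6. Which transcripts were present was not tested, so these values do not rank the genes by abundance.

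**Figure D2:**
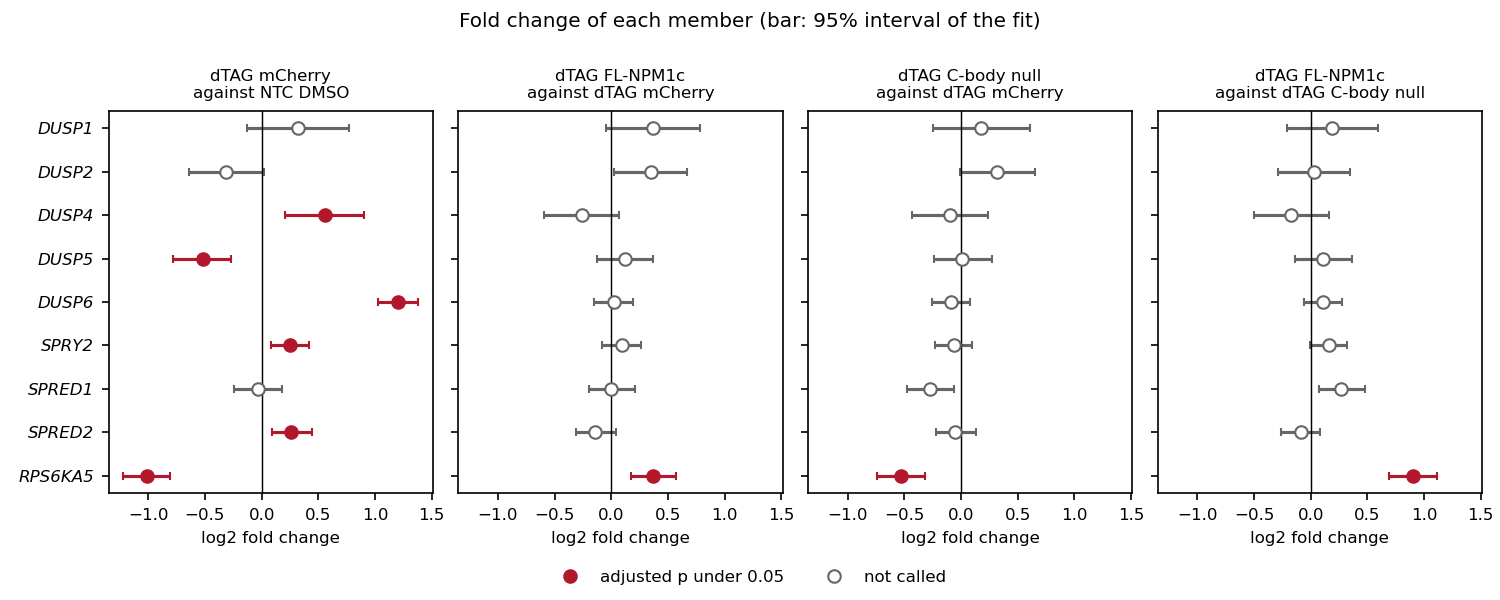
Log2 fold change of the 9 tested genes in 4 comparisons, first-named group over second, with the 95% interval of the fit as bar; filled points have an adjusted p under 0.05. DUSP6 (1.20) and RPS6KA5 (-1.01) lie farthest from 0 for dTAG mCherry against NTC DMSO, and RPS6KA5 is the filled point in each of the other 3 panels.

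Counted over the 9 tested genes, 4 were higher and 2 lower in dTAG mCherry than in NTC DMSO, where 22.6% of all tested genes were called, 12.9% higher and 9.69% lower. For dTAG FL-NPM1c against dTAG mCherry, 1 was higher (15.5% of all genes were called, 7.58% higher and 7.95% lower). For dTAG C-body null against dTAG mCherry, 1 was lower (0.594% of all genes were called, 0.216% higher and 0.378% lower). For dTAG FL-NPM1c against dTAG C-body null, 1 was higher (9.68% of all genes were called, 4.82% higher and 4.86% lower). In each of these last 3 comparisons the gene was RPS6KA5. Against NTC DMSO, 3 were higher and 2 lower in dTAG FL-NPM1c, where 27.9% of all genes were called, 14.6% higher and 13.3% lower. In dTAG C-body null, 2 were higher and 3 lower than in NTC DMSO, where 26.6% of all genes were called, 14.1% higher and 12.4% lower. Groups of 3 libraries did not overlap for 7 of the 9 genes in dTAG mCherry against NTC DMSO (32.1% of all genes), 2 in dTAG FL-NPM1c against dTAG mCherry (32.4%), 2 in dTAG C-body null against dTAG mCherry (15%), 4 in dTAG FL-NPM1c against dTAG C-body null (35.1%), 5 in dTAG FL-NPM1c against NTC DMSO (43.5%) and 7 in dTAG C-body null against NTC DMSO (40.4%). Since the genes were chosen with results known, nothing is read from these counts. Median log2 fold changes of the tested members were 0.25, 0.09, -0.06 and 0.11 in the 4 comparisons that the plot of fold changes shows, against 0.00, 0.00, -0.01 and 0.01 over all tested genes.

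The rest of the pathway was examined in lists chosen by role, with earlier results on these libraries known. As for the members, nothing is read from the counts of these lists. For dTAG mCherry against NTC DMSO, 12.9% of all tested genes were called higher and 9.69% lower. Of 6 tested other MAPK phosphatases, 1 rose and 2 fell. DUSP16, which acts on JNK and p38, rose by 1.08 ± 0.13 on the log2 scale (adjusted p = 1.4e-05), DUSP9 fell by 0.64 (SE 0.18, adjusted p = 0.015) and DUSP10 fell by 0.55 (SE 0.11, adjusted p = 0.0018). Of 13 other Sprouty, SPRED and receptor feedback genes, 3 rose and 0 fell: SPRY3 (1.31 ± 0.20), SPRY4 (0.53 ± 0.09) and CBL, a ubiquitin ligase for receptors (0.37 ± 0.11). Of 26 ERK output and immediate early genes, 10 rose and 2 fell. Those that rose included the antiproliferative gene BTG2 (1.82 ± 0.10), the AP-1 subunit JUN (1.60 ± 0.11) and IER3 (1.58 ± 0.21), and those that fell were the nuclear receptor NR4A1 (-0.91 ± 0.18) and the ETS factor ETV4 (-0.62 ± 0.11). BTG2 is also known as a p53 target, and of 12 listed p53 target genes 12 rose, with CDKN1A, a cell cycle inhibitor, at 2.83 ± 0.09. Of these genes, DUSP9 was not called without dTAG mCherry replicate 3 (-0.48, adjusted p = 0.054), and CBL was not called without dTAG mCherry replicate 2 or 3 or NTC DMSO replicate 1 or 3 (0.32 to 0.36, adjusted p = 0.052 to 0.11).

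In the same comparison, where 22.6% of all tested genes were called, the kinase lists gave the following counts. Of 29 tested genes of the RAS-RAF-MEK-ERK cascade, 2 rose (the adaptor GAB2, 0.95 ± 0.13, and the scaffold KSR1, 0.42 ± 0.14) and 2 fell (NRAS, -0.39 ± 0.10, and the adaptor GAB1, -0.38 ± 0.10). Of 17 p38 and JNK cascade genes, 4 rose and 2 fell, among them GADD45A (1.55 ± 0.15), a stress activator of the cascade, and MAP2K6, a kinase that activates p38 (-1.02 ± 0.13). Of 12 tested genes of the MSK2, RSK, MNK and MAPKAPK list, 4 rose and 1 fell. RPS6KA4, which encodes MSK2, the closest relative of MSK1, did not pass the test (-0.14, adjusted p = 0.46), and the RSK gene RPS6KA2 rose (0.63 ± 0.16, adjusted p = 0.010), but not without dTAG mCherry replicate 2 (0.45, adjusted p = 0.059). KSR1 was not called without dTAG mCherry replicate 2 (0.25, adjusted p = 0.18) or NTC DMSO replicate 1 (0.36, adjusted p = 0.14) or 2 (0.37, adjusted p = 0.11). NRAS was not called without dTAG mCherry replicate 1 (adjusted p = 0.051) or NTC DMSO replicate 1 (0.073) or 2 (0.069), nor GAB1 without dTAG mCherry replicate 1 (0.067) or NTC DMSO replicate 2 (0.062). Of 9 tested myeloid growth factor receptors, 4 rose, led by the macrophage receptor CSF1R (3.80 ± 0.15), which is also among the monocyte markers given above.

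Between dTAG FL-NPM1c and dTAG mCherry, NR4A1 was higher by 1.34 ± 0.17 (adjusted p = 9.2e-05) and DUSP9 by 0.73 ± 0.17 (adjusted p = 0.012), while DUSP16 was lower by a log2 fold change of -0.51 ± 0.12 (adjusted p = 0.012). DUSP9 was not called without dTAG FL-NPM1c replicate 2 (adjusted p = 0.052), nor DUSP16 without that library (0.064) or dTAG mCherry replicate 3 (0.057). Of the 13 other Sprouty, SPRED and receptor feedback genes, 2 were higher and 3 lower. RASA2 (-0.58, adjusted p = 0.0018), CBL (-0.38, adjusted p = 0.032) and SPRY4 (-0.26, adjusted p = 0.047) were lower. LZTR1 (0.55, adjusted p = 0.015) and PEBP1 (0.25, adjusted p = 0.016) were higher. Among these, only RASA2 kept its call with each library left out in turn. Of the 26 ERK output and immediate early genes, 7 were higher and 6 lower, with a list median of 0.02. Over all tested genes, 7.58% were called higher and 7.95% lower in this comparison. Of the 29 cascade genes, 1 was higher, RASGRP2, an exchange factor for RAP and RAS proteins (0.54 ± 0.13). Of 12 tested genes of the MSK2, RSK, MNK and MAPKAPK list, 0 were higher and 3 lower. These were the RSK gene RPS6KA3 (-0.37, adjusted p = 0.026), CREB1 (-0.34, adjusted p = 0.028) and MKNK1 (-0.25, adjusted p = 0.041). Each of the 3 was not called without dTAG FL-NPM1c replicate 1 or 2 or dTAG mCherry replicate 3. Between dTAG C-body null and dTAG mCherry, 0.594% of all tested genes were called. The calls in these 7 MAPK and receptor lists were PHLDA1 (-0.62 ± 0.10, adjusted p = 0.0068) and GAB1 (-0.50 ± 0.10, adjusted p = 0.034). PHLDA1 was not called without dTAG C-body null replicate 2 (adjusted p = 0.058) or 3 (0.053), and GAB1 was not called without any 1 of the 3 dTAG C-body null libraries (0.09, 0.10 and 0.23) or without dTAG mCherry replicate 1 (0.088) or 3 (0.11). Between dTAG FL-NPM1c and dTAG C-body null, NR4A1 (1.31 ± 0.17), the AP-1 subunit JUNB (0.75 ± 0.15) and GAB1 (0.62 ± 0.10) were higher, and the pseudokinase gene TRIB2 (-0.66 ± 0.09), EGR1 (-0.50 ± 0.10) and DUSP3 (-0.46 ± 0.07) were lower. CBL (-0.56, adjusted p = 0.004) and RPS6KA3 (-0.45, adjusted p = 0.011) were lower as well. RPS6KA3 was not called there without replicate 1 or 2 of either group.

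**Figure D3:**
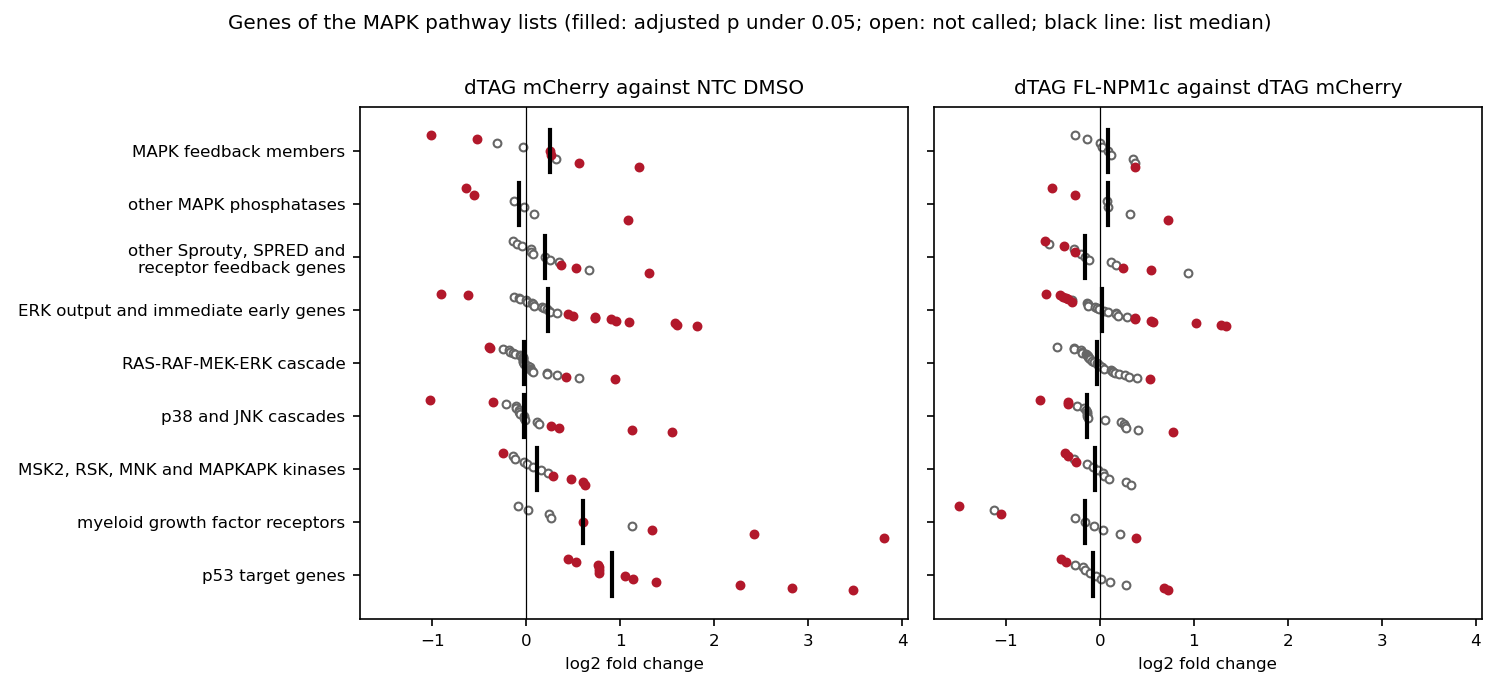
Log2 fold change of every tested gene in the pathway lists, for dTAG mCherry against NTC DMSO and for dTAG FL-NPM1c against dTAG mCherry; each point is a gene, filled where the adjusted p is under 0.05, and the black line is the list median. All 12 p53 targets are filled and above 0 for dTAG mCherry against NTC DMSO, where 22.6% of all tested genes were called, while the 29 cascade genes centre on -0.02.

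Genes with a pattern most like that of RPS6KA5 were sought over the 12 libraries, by the root mean square difference of log2 CPM centred on the mean, among 14241 genes. The 3 nearest were IL12A-AS1 (difference 0.10), MEIS1 (0.11) and MKX (0.13), where RPS6KA5 itself varied by 0.57. MEIS1, a HOX cofactor, had log2 fold changes of -0.81 ± 0.09 for dTAG mCherry against NTC DMSO, 0.25 ± 0.09 for dTAG FL-NPM1c against dTAG mCherry (adjusted p = 0.059, not called), -0.68 ± 0.09 for dTAG C-body null against dTAG mCherry and 0.93 ± 0.09 for dTAG FL-NPM1c against dTAG C-body null. For DUSP6, which varied by 0.52, the nearest were ICA1 (0.09), KLHL24 (0.11) and TFAP2C (0.13). ICA1 had a log2 fold change of 1.29 ± 0.10 for dTAG mCherry against NTC DMSO and 0.12 ± 0.09 for dTAG FL-NPM1c against dTAG mCherry (adjusted p = 0.38). Likeness was the basis of the choice and was not tested.

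**Figure D4:**
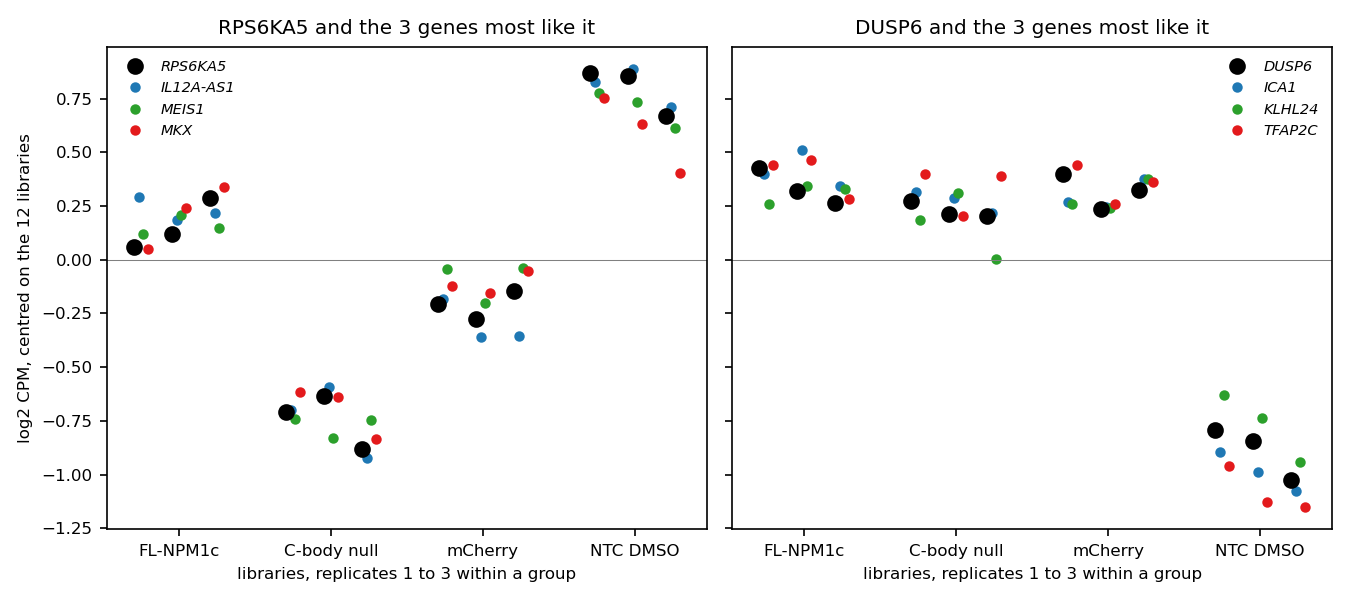
Log2 CPM centred on the 12 libraries for RPS6KA5 (left) and DUSP6 (right), each with the 3 genes most like it; each point is a library. RPS6KA5, IL12A-AS1, MEIS1 and MKX are lowest in dTAG C-body null and highest in NTC DMSO, and DUSP6 and its neighbours differ between NTC DMSO and the other 3 groups.

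Because MSK1 phosphorylates CREB, the start-proximal sequences of RPS6KA5 and of DUSP1, a known CREB target, are shown from RefSeq (GRCh38.p14), 5′ to 3′ on the gene's minus strand. Capitals mark matches on either strand to the full cyclic AMP response element TGACGTCA, its core TGACG, and the CCAAT box. The RPS6KA5 stretch is chr14:91060705-91060831 (190 to 64 bases before an annotated start). The DUSP1 stretch is chr5:172771196-172771445 (the 250 bases before its annotated start).
RPS6KA5: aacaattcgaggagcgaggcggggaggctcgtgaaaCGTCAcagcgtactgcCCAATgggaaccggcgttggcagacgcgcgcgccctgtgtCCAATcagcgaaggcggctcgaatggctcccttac
DUSP1: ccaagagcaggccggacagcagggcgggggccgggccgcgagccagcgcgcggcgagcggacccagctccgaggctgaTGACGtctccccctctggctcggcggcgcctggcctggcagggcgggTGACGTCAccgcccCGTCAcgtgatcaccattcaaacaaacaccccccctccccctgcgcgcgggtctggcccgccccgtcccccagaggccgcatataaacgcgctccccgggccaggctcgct
The full element occurs in 1.65% of 35114 promoters of 250 bases, its core in 21.2% and the CCAAT box in 32.0%. In the 250 bases before these starts, DUSP1 holds 1 full element and 4 cores, of which 2 are the strands of the full element. RPS6KA5 holds 1 core and 3 CCAAT boxes there. The 250 bases before another RefSeq start of RPS6KA5 (chr14:91060125-91060374) hold 0 cores and 0 CCAAT boxes. The matches of RPS6KA5 therefore depend on the start chosen. A match of letters is a description and does not show binding.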

How the data were processed

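The authors deposited 1 table of raw gene counts, keyed by Ensembl ID with a column per library. Per the labels' protocols, library preparation used a stranded kit for mRNA. STAR, featureCounts, DESeq2 and hg38 are named without versions, per the submitters' processing notes. Strand setting, annotation release and handling of multiply mapped reads: not given in the sources used here. Of 78936 lines, 6 broken ones of 2 genes were left out. A table of gene names supplied 61479 symbols and GENCODE 29 another 54 and the coordinates; 17397 IDs had none. Columns were matched by the library number in column name and description, an inference from the labels.

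Counts were tested in R 4.3.3 with edgeR 4.0.16 (filterByExpr by group, 24064 genes, TMM, robust quasi-likelihood fit of all 12 libraries with 1 mean per group). Adjusted p under 0.05 (Benjamini-Hochberg over all tested genes) was called. CPM are per effective library size, and SE is the absolute log2 fold change over the square root of F. The members and lists were chosen with earlier results of these data known. All members are named, with up to 3 called genes per list and direction, and paralogues. As alternatives, RLE factors, library totals, DESeq2 1.42.0, no filter, a minimum of 50 counts in 3 libraries, a stricter adjusted p (0.01), a minimum absolute log2 fold change of 1, fits of the compared groups alone, a replicate block and omission of each library were run. Omitting dTAG mCherry replicate 2 and NTC DMSO replicate 3 together was chosen after seeing the data. In simulated data for dTAG mCherry against NTC DMSO (23675 genes), the test found 30 of 67 genes with a 1.5-fold change, 54 of 67 with a 2-fold change and 63 of 66 with a 4-fold change, and 11 of 158 calls were false. Only those genes were changed, whereas the real comparison called 5429 genes (22.6%). Simulated libraries were drawn independently, without libraries that stand apart. These rates therefore check the code and do not give the error rates of the real comparison.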

Additional observations from a re-analysis of the deposited data

How the results depend on the processing

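Under all alternatives run, DUSP6, DUSP5 and RPS6KA5 kept their calls for dTAG mCherry against NTC DMSO, as did RPS6KA5 for dTAG FL-NPM1c against dTAG C-body null, except that DUSP5 and this last RPS6KA5 difference were below an absolute log2 fold change of 1 where that was required. The number of members called for dTAG mCherry against NTC DMSO (6) was 3 to 6 with a library left out, 3 at an adjusted p under 0.01 and 2 at a minimum absolute log2 fold change of 1. For dTAG FL-NPM1c against dTAG mCherry (1) it was 0 to 2 with a library left out, 3 without dTAG mCherry replicate 2 and NTC DMSO replicate 3 together, and 0 at each stricter threshold. For dTAG C-body null against dTAG mCherry (1) it was 0 to 1 with a library left out, 3 without that pair, and 0 with the groups alone and at each stricter threshold. For dTAG FL-NPM1c against dTAG C-body null (1) it was 2 with the groups alone and 0 at a log2 fold change of at least 1. For dTAG FL-NPM1c against NTC DMSO (5) it was 3 at an adjusted p under 0.01 and 1 at a log2 fold change of at least 1. For dTAG C-body null against NTC DMSO (5) it was 3 to 5 with a library left out, 6 with library totals, with the filter of 50 counts and by DESeq2, 4 with no filter, 3 at an adjusted p under 0.01 and 2 at a log2 fold change of at least 1. The cause of these changes was not tested.

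No pairing by replicate number was seen: 2 of 18 same-numbered pairs of libraries had a residual correlation over 0.1 (range -0.31 to 0.16). With 3 libraries per group and libraries that stood apart, this check cannot show that there was none. Between libraries of different groups, the highest residual correlation (0.40) was that of NTC DMSO replicate 3 and dTAG mCherry replicate 2. These are the libraries that stood apart, and their numbers differ. What they share was not tested. With the replicate number as a block, 0 members were called for dTAG C-body null against dTAG mCherry (RPS6KA5 adjusted p = 0.063), 3 for dTAG C-body null against NTC DMSO, where the calls of DUSP4 (adjusted p = 0.065) and SPRED1 (0.059) ended, and 4 for dTAG mCherry against NTC DMSO, where those of SPRY2 and SPRED2 (0.062) ended. The counts of the other 3 comparisons did not change with the block.

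Values that changed sign were near 0 and were not called. With a library left out, SPRED1 ranged from -0.13 to 0.05 for dTAG mCherry against NTC DMSO. For dTAG FL-NPM1c against dTAG mCherry, DUSP6 ranged from -0.06 to 0.06 and SPRED1 from -0.06 to 0.04. For dTAG C-body null against dTAG mCherry, DUSP4 ranged from -0.16 to 0.01, DUSP5 from -0.08 to 0.08 and SPRED2 from -0.09 to 0.03. DUSP2 ranged from -0.07 to 0.09 for dTAG FL-NPM1c against dTAG C-body null, from -0.05 to 0.11 for dTAG FL-NPM1c against NTC DMSO and from -0.09 to 0.08 for dTAG C-body null against NTC DMSO. SPRED1 ranged from -0.13 to 0.06 for dTAG FL-NPM1c against NTC DMSO. Without dTAG mCherry replicate 2 and NTC DMSO replicate 3 together, dTAG FL-NPM1c against dTAG mCherry gave -0.06 for DUSP6 and -0.04 for SPRED1, and dTAG C-body null against dTAG mCherry gave 0 for DUSP5. SPRED1 for dTAG FL-NPM1c against NTC DMSO was 0 with library totals, and DUSP2 for dTAG C-body null against NTC DMSO was -0.01 with no filter. Among all genes, calls for dTAG FL-NPM1c against dTAG mCherry (3735) ranged from 1621 to 6834 with a library left out and reached 8369 without that pair. Calls for dTAG C-body null against dTAG mCherry (143) ranged from 60 to 1399 and reached 3957, with 368 without the filter, 362 by DESeq2, 86 with the block and 63 with the groups alone. With the groups alone, 3402 genes were called for dTAG mCherry against NTC DMSO (5429) and 4410 for dTAG FL-NPM1c against dTAG C-body null (2329). Depth limits SPRY1 (0 to 3 counts) and DUSP1 (28 to 69 counts).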
